A study of Saccharomyces cerevisiae with 22 samples.

Results

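The genes described here are 10 heat shock chaperones of budding yeast (Saccharomyces cerevisiae), chosen by their symbols and systematic names, out of 6242 genes on the arrays. They are the cytosolic Hsp70 genes SSA1 (YAL005C), SSA2 (YLL024C), SSA3 (YBL075C) and SSA4 (YER103W), the Hsp90 genes HSP82 (YPL240C) and HSC82 (YMR186W), the Hsp90 partner CPR6 (YLR216C), the disaggregase HSP104 (YLL026W), and the small heat shock proteins HSP26 (YBR072W) and HSP42 (YDR171W). Each has 1 row in the deposited table, and all 10 had enough values to be tested. The cells grew in 3 chemostats, in which a culture is fed and drained at a constant rate. Each chemostat was sampled in a galactose steady state, then after a change of sugar to glucose, and last in a glucose steady state. The no3AT and no3AT2 chemostats held no inhibitor. The 3AT40mM chemostat held 40 mM 3AT (3-amino-1,2,4-triazole), an inhibitor of the histidine enzyme His3. The labels name neither strain nor clone. As is known of this study from outside its labels, HIS3 was driven by the GAL1 promoter in medium without histidine. Each chemostat is 1 culture, so 3AT and culture cannot be told apart. The labels also give polyA RNA for no3AT2 and total RNA for the other chemostats, so that RNA type, too, goes with the culture.

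Chaperones bind unfolded proteins and keep them from clumping. Hsp70 proteins hold and release short exposed stretches of new or damaged proteins, Hsp90 helps signalling proteins such as kinases reach their active form, Hsp104 pulls proteins out of aggregates together with Hsp70, and small heat shock proteins coat unfolded proteins until they can be refolded. In yeast the heat shock factor Hsf1 and the general stress activators Msn2 and Msn4 switch on many of these genes, while SSA2 and HSC82 are known as the copies that are made at a high level also without stress.

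Each value is a log2 ratio of the culture's RNA (Cy5) over a reference pool of glucose and galactose RNA (Cy3), centred on the median of its array. A value of 0 is the level of the pool, and values of different genes cannot be set against each other as levels. Because of the centring, a change in total mRNA per cell would not show. The no3AT chemostat has galactose arrays at 305 and 316 hours, glucose arrays at 344, 353, 385 and 478 hours and steady state arrays at 507 and 526 hours. The 3AT40mM chemostat has galactose arrays at 477 and 522 hours, glucose arrays at 552, 574, 592, 850 and 878 hours and a steady state array at 937 hours. The no3AT2 chemostat has 1 galactose array, glucose arrays at 315 and 328 hours and 3 steady state arrays with no hour. Early glucose stands for the arrays at the 2 lowest labelled hours in glucose, and the labels do not give the hour of the switch. The 5 glucose arrays between early glucose and steady state entered no test.

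Arrays differed in quality. Between 138 and 1587 of 6281 rows had no value, and arrays of the same group correlated across genes at -0.20 to 0.76 (median 0.53, 13 pairs). Some galactose and glucose arrays ran against each other, down to a correlation of -0.45. The direction was kept as the labelled dyes give it. The 3AT40mM array at 552 hours, labelled glucose, lay at the galactose level of GAL1, a galactose kinase gene that glucose represses (-0.93 against -1.23 and -1.06 in galactose, and -4.26 at 574 hours). The 937 hour array, the only glucose steady state array of that culture, lay there too (-0.94). GAL1 alone is a limited check of the sugar. In no3AT GAL1 stood at -0.48 and -0.53 at 478 and 526 hours, against -1.17 and -0.46 in galactose. GAL7, another galactose gene, stood at -2.6 and -2.7 on those arrays, against -0.054 and -0.255 in galactose. Results of the chaperone genes that use the 552 hour array are given with and without it where a call depends on it. Calls of other genes are given only with that array, and whether they depend on it was not tested. Neighbouring rows of the table also moved together, and values called neighbour-corrected have the median of nearby rows removed.

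No chaperone gene passed the test over all 3 cultures together, and the cultures went different ways. In no3AT the 10 genes stood mostly above their galactose level in early glucose and mostly back near it at steady state. In 3AT40mM 8 of the 10 stood above it on the last array, by up to 5.74-fold for HSP82 and 5.09-fold for HSP104. In no3AT2 SSA1, SSA2 and HSC82 were far below their galactose level at 315 hours and near it at steady state. HSP104 came nearest to a shared change, at 2.19-fold in steady glucose over galactose.

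**Figure D1:**
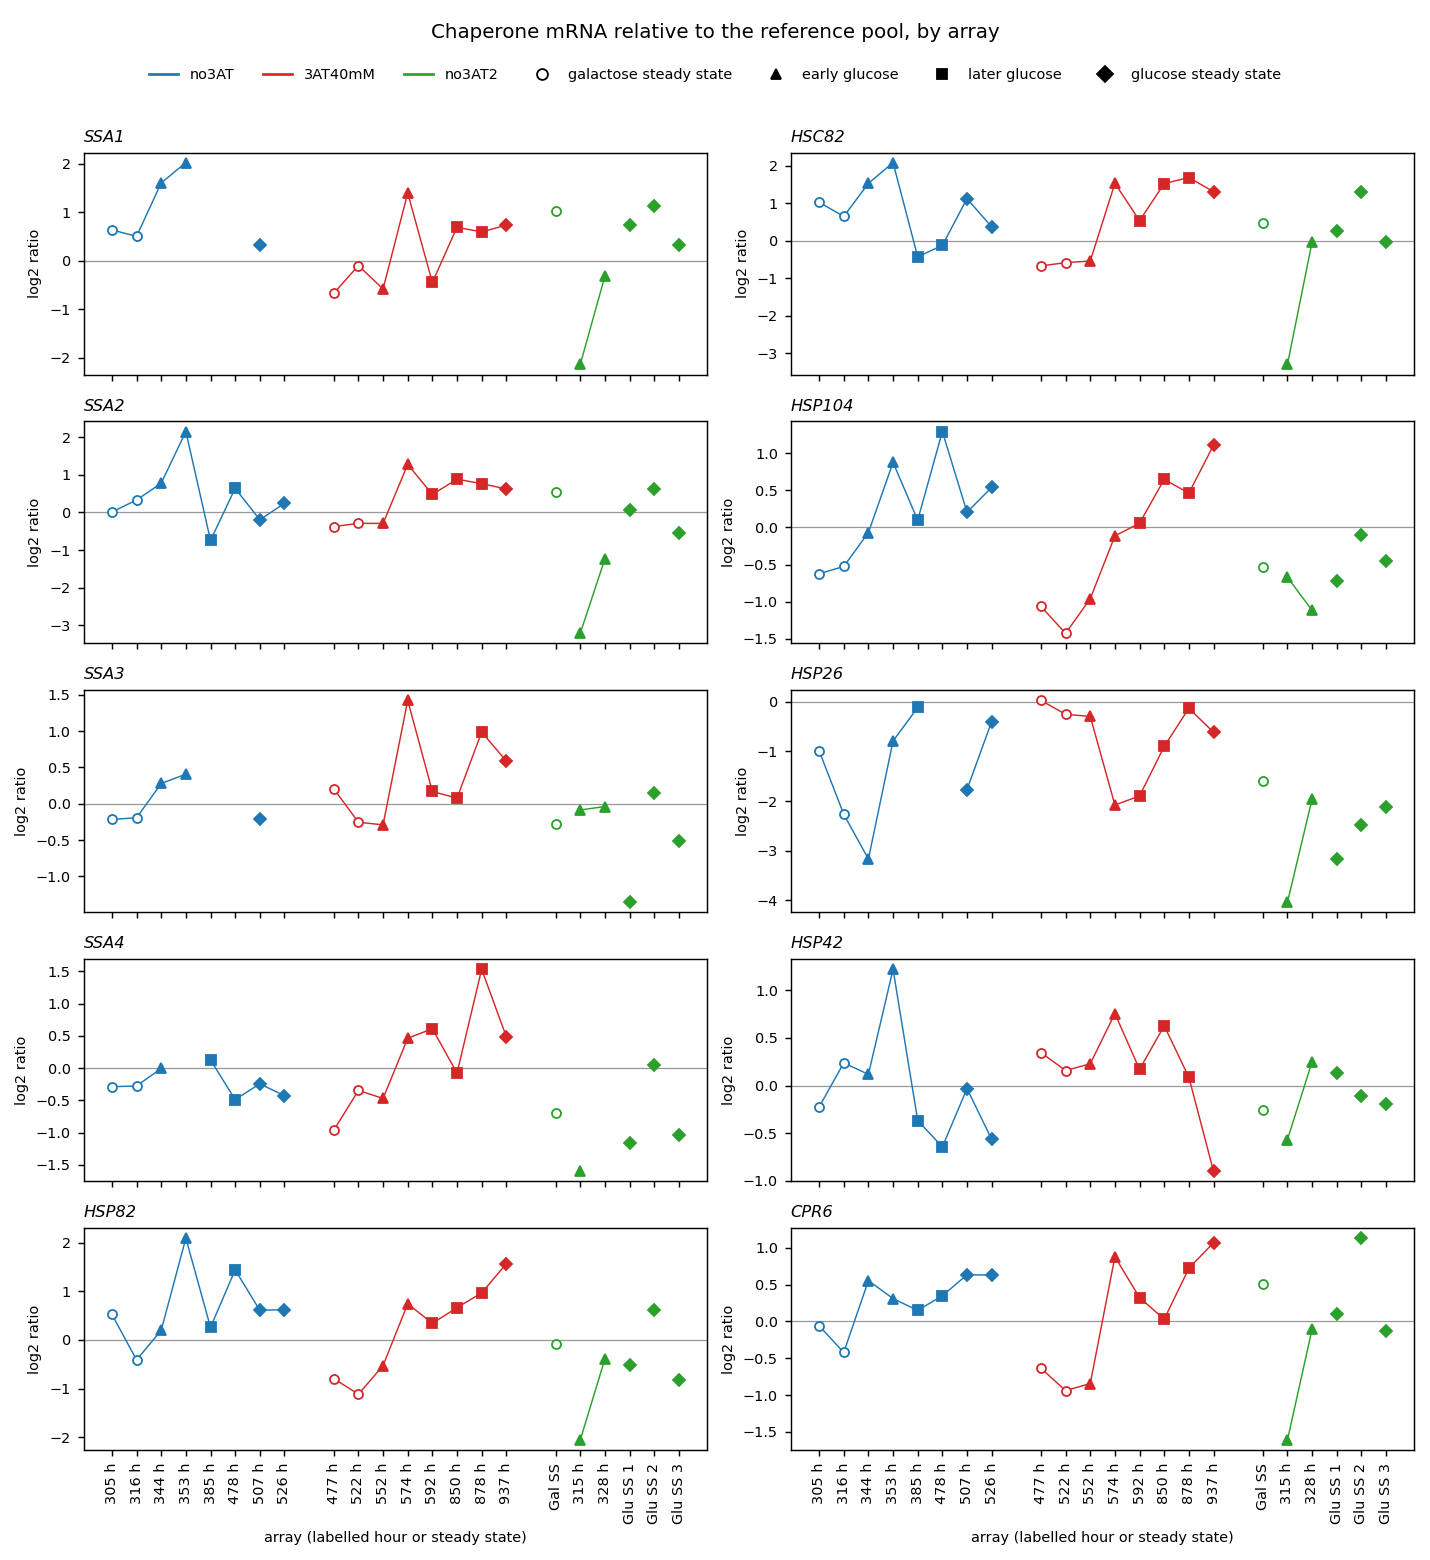
Log2 ratio of each chaperone gene over the reference pool (y axis) on each array in order of chemostat and labelled hour (x axis), with lines joining arrays that carry an hour and no point where a value is missing. The lowest points of SSA1, SSA2, HSP82, HSC82 and CPR6 are all the no3AT2 array at 315 hours, and HSP104 in 3AT40mM runs from -1.42 at 522 hours to 1.11 at 937 hours.

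The first question was which genes responded in the same way in every culture. Over the 3 chemostats, with limma on 1 mean per chemostat and phase, 0 of the 10 genes were called at an adjusted p of 0.05 in early glucose against galactose, where 7.11% of all 4783 genes were. In steady glucose against galactose 0 of 10 were called against 17.6% of all genes, and in steady against early glucose 0 of 10 against 0%. At an unadjusted p under 0.05 the members numbered 1, 2 and 1 in these comparisons, and all genes 1116, 1654 and 344. The median change of the 10 genes was 0.02, 0.27 and 0.49 on the log2 scale, beside 0.02, 0.02 and -0.03 for all genes tested. The first median was -0.02 with the neighbour-corrected values and 0.33 without the 552 hour array. Of the 10 genes, 6, 8 and 8 lay above 0. The steady state median rested on 3AT40mM: it was -0.03 with that chemostat left out, and the median of steady against early glucose was -0.02 with no3AT2 left out. The comparisons share arrays and are not independent of each other.

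**Figure D2:**
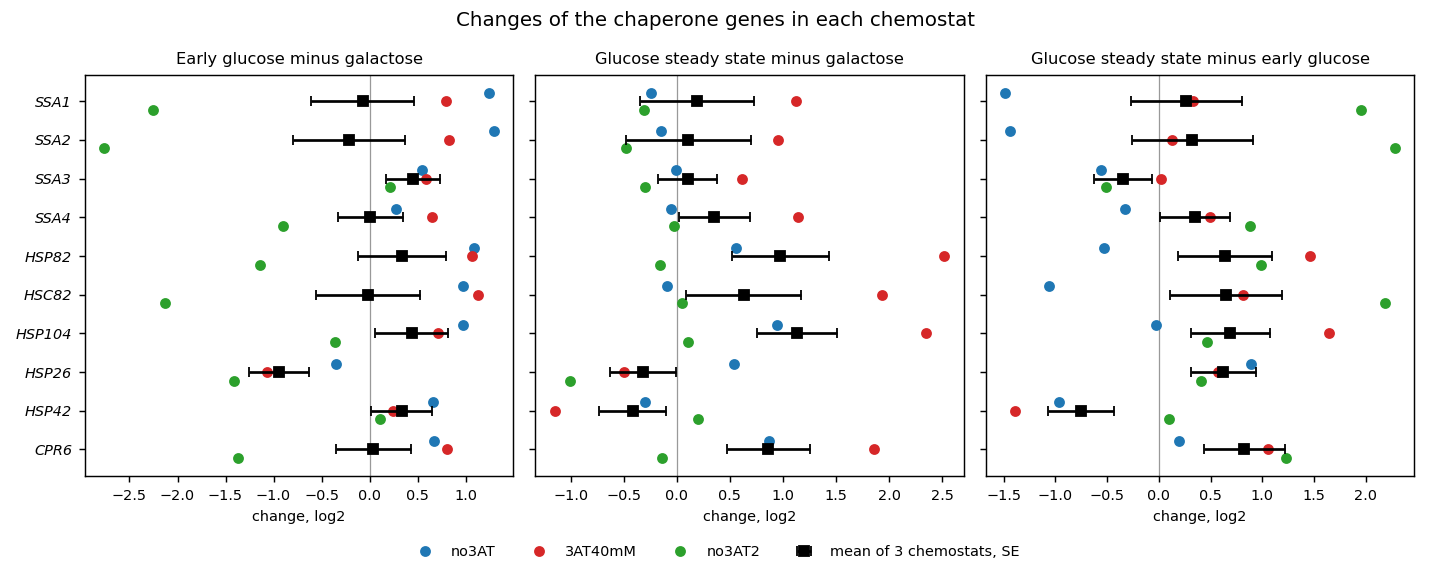
Change of each chaperone gene on the log2 scale (x axis) in early glucose against galactose, steady glucose against galactose and steady against early glucose, with 1 circle per chemostat and black squares for the mean of 3 chemostats with its SE from the fit. In early glucose SSA2 lies at 1.29 in no3AT, 0.83 in 3AT40mM and -2.76 in no3AT2, and in steady glucose HSP82 and HSP104 lie above 2 in 3AT40mM only.

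Among the Hsp70 genes, SSA1 and SSA2 encode the main cytosolic Hsp70 proteins. Their sequences are nearly the same, so a probe for one may also bind RNA of the other, and their values are uncertain as separate measurements. SSA1 stood at 0.64 and 0.50 in the galactose arrays of no3AT, at 1.61 and 2.02 in early glucose and at 0.33 on the 1 steady state array with a value. It had no value on the later arrays of that culture. In the inhibitor culture it stood at -0.67 and -0.10 in galactose, at -0.58 and 1.40 in early glucose, at -0.45, 0.69 and 0.59 on the later arrays and at 0.74 at steady state. In no3AT2 it stood at 1.03 in galactose, at -2.14 and -0.32 in early glucose, and at 0.73, 1.12 and 0.32 at steady state. The early arrays of no3AT were therefore above galactose without overlap, and those of no3AT2 were below it without overlap. Of those of 3AT40mM, 1 lay between the galactose arrays and 1 above them. The mean change over chemostats in early glucose was -0.07 (SE 0.54, adjusted p = 0.953, n = 3). Its sign is not settled, as it was 0.26 without the 552 hour array and 0.55 with the neighbour-corrected values.

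SSA2 stood at 0.01 and 0.33 in galactose in no3AT, at 0.78 and 2.15 in early glucose, at -0.74 and 0.64 later and at -0.20 and 0.24 at steady state. In 3AT40mM the values were -0.38 and -0.29 in galactose, -0.29 and 1.28 in early glucose, 0.48, 0.88 and 0.77 later and 0.62 at steady state. In no3AT2 they were 0.54 in galactose, -3.22 and -1.23 in early glucose and 0.07, 0.63 and -0.54 at steady state. All glucose arrays of 3AT40mM from 574 hours on were above its galactose arrays, whereas the steady state arrays of the cultures without inhibitor overlapped with galactose or lay on both sides of it. Over chemostats, SSA2 stood at -0.21 in early glucose (SE 0.59, adjusted p = 0.863) and at 0.11 in steady glucose (SE 0.59, adjusted p = 0.908). It lay below 0 in 1 of 3 cultures in early glucose and above 0 in 1 of 3 at steady state. The steady state value was -0.30 with the neighbour-corrected values.

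SSA3 and SSA4 are the Hsp70 copies that are made mainly under heat and other stress. SSA3 had a median close to the pool, at -0.04 over 19 arrays, and ran from -1.36 to 1.42. Its SD of 0.58 was above that of 64.7% of 4570 genes. It had no value on 3 arrays of no3AT. Its lowest value was a steady state array of no3AT2 and its highest the 574 hour array of 3AT40mM. In early glucose its change was 0.55 in no3AT, 0.59 in 3AT40mM and 0.21 in no3AT2, a mean of 0.45 (SE 0.28, adjusted p = 0.343). It did not pass, and the value in no3AT2 was -0.22 with the neighbour-corrected values.

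SSA4 stood at -0.29 and -0.28 in galactose in no3AT, at -0.0050 on the 1 early array with a value, at 0.13 and -0.49 later and at -0.24 and -0.43 at steady state. In the culture with 3AT it stood at -0.96 and -0.35 in galactose, -0.47 and 0.46 in early glucose, 0.61, -0.08 and 1.53 later and 0.49 at steady state. Each glucose array of 3AT40mM from 574 hours on was above both of its galactose arrays, and the 878 hour array was the highest of all for this gene. In no3AT2 the values were -0.69 in galactose, -1.60 in early glucose and -1.16, 0.06 and -1.04 at steady state. The change at steady state against galactose was -0.05 in no3AT, 1.14 in 3AT40mM and -0.02 in no3AT2, a mean of 0.36 (SE 0.34, adjusted p = 0.47).

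The Hsp90 genes HSP82 and HSC82 encode nearly identical proteins, HSP82 being the copy raised by heat. Cross-hybridisation between their probes is possible, and the caution given for SSA1 and SSA2 holds for them. HSP82 stood at 0.53 and -0.41 in galactose in no3AT, at 0.20 and 2.09 in early glucose, at 0.26 and 1.44 later and at 0.61 and 0.62 at steady state. In 3AT40mM it stood at -0.80 and -1.12 in galactose, at -0.53 and 0.74 in early glucose, at 0.34, 0.66 and 0.97 later and at 1.57 at steady state. In that culture each glucose array was above both galactose arrays, and the values were higher at each labelled hour from 592 hours to 937 hours. In no3AT2 HSP82 stood at -0.09 in galactose, at -2.06 and -0.39 in early glucose and at -0.51, 0.61 and -0.83 at steady state, with galactose inside the steady state range. The change at steady state was 0.56 in no3AT, 2.52 in 3AT40mM and -0.15 in no3AT2, with a mean of 0.98 (SE 0.46, 1.97-fold, adjusted p = 0.146). It passed with no3AT2 left out, at 1.54 (adjusted p = 0.0228). With the neighbour-corrected values it was 0.66 (limma, adjusted p = 0.48), and it was 0.20 with 3AT40mM left out.

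HSC82 stood at 1.02 and 0.65 in galactose in no3AT, at 1.53 and 2.08 in early glucose, at -0.43 and -0.13 later and at 1.12 and 0.37 at steady state. It was thus above galactose in early glucose, below it on both later arrays and on both sides of it at steady state. In 3AT40mM it stood at -0.67 and -0.59 in galactose, at -0.54 and 1.53 in early glucose, at 0.53, 1.52 and 1.68 later and at 1.31 at steady state. In no3AT2 it stood at 0.46 in galactose, at -3.30 and -0.04 in early glucose and at 0.27, 1.30 and -0.03 at steady state. Over the arrays HSC82 spread as widely as HSP26, with an SD above that of 99.2% of 4570 genes. Its mean change at steady state was 0.63 (SE 0.54, adjusted p = 0.421), which was -0.02 with 3AT40mM left out.

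CPR6, a cyclophilin that binds Hsp90, correlated over the arrays with HSP82 at 0.79 and with HSC82 at 0.80. Its correlation with HSP82 was 0.39 within no3AT and 0.95 within 3AT40mM. It stood at -0.06 and -0.42 in galactose in no3AT, at 0.55 and 0.31 in early glucose, at 0.15 and 0.35 later and at 0.63 and 0.63 at steady state, so that each glucose array was above both galactose arrays. In 3AT40mM it stood at -0.64 and -0.94 in galactose, at -0.84 and 0.88 in early glucose, at 0.32, 0.03 and 0.72 later and at 1.07 at steady state. In no3AT2 it stood at 0.51 in galactose, at -1.61 and -0.10 in early glucose and at 0.10, 1.13 and -0.12 at steady state. The change at steady state was 0.87, 1.86 and -0.14 in no3AT, 3AT40mM and no3AT2, a mean of 0.86 (SE 0.39, 1.82-fold, adjusted p = 0.132). It passed with quantile normalization (0.96, adjusted p = 0.0482), with no3AT2 left out (1.36, adjusted p = 0.0146) and without the galactose array of no3AT2 (1.46, adjusted p = 0.0346). With the neighbour-corrected values it was 0.52 (limma, adjusted p = 0.427), and it was 0.365 with 3AT40mM left out.

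HSP104, the disaggregase that is needed for survival of extreme heat, had the smallest adjusted p of the 10 genes in steady glucose. It stood at -0.62 and -0.53 in galactose in no3AT, at -0.07 and 0.87 in early glucose, at 0.10 and 1.29 later and at 0.20 and 0.54 at steady state. The 3AT40mM values were -1.06 and -1.42 in galactose, -0.96 and -0.11 in early glucose, 0.06, 0.65 and 0.46 later and 1.11 at steady state. In both of these cultures each glucose array was above both galactose arrays. In no3AT2 it stood at -0.53 in galactose, at -0.67 and -1.11 in early glucose and at -0.73, -0.11 and -0.45 at steady state, with galactose inside the steady state range. The change at steady state was 0.95 in no3AT, 2.35 in 3AT40mM and 0.10 in no3AT2, above 0 in all 3 cultures. Its mean of 1.13 (SE 0.38, 2.19-fold) missed the threshold by little (limma, adjusted p = 0.0531). It passed under 6 of 14 alternative settings, among them the values as deposited (adjusted p = 0.0359), quantile normalization (0.0176) and arrays as units (0.0218), and in 5 of 20 fits that left out an array or chemostat. With the neighbour-corrected values it was 0.78 (adjusted p = 0.258), with no3AT2 turned to -0.13, and it was 0.52 with 3AT40mM left out.

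The small heat shock protein gene HSP26 was the 1 member below the reference pool almost throughout. It lay below 0 on 20 of its 21 arrays (median -1.59, lowest -4.04 at 315 hours in no3AT2), a median under that of all but 0.1% of 4570 genes. In galactose it stood at -0.99 and -2.27 in no3AT, 0.02 and -0.26 in 3AT40mM and -1.59 in no3AT2. In early glucose it stood at -3.17 and -0.79, at -0.30 and -2.08, and at -4.04 and -1.96 in the same order. At steady state it stood at -1.77 and -0.40, at -0.62, and at -3.17, -2.47 and -2.13. The galactose arrays of no3AT alone stood 0.64 on either side of their mean, and its early arrays lay on either side of them. The change in early glucose was -0.35, -1.07 and -1.41, below 0 in all 3 cultures, with a mean of -0.94 (SE 0.31, 1.93-fold lower, adjusted p = 0.083). It passed without the 552 hour array (-1.24, adjusted p = 0.0459), without the 353 hour array (-1.34, adjusted p = 0.0262) and without the 316 hour array (-1.16, adjusted p = 0.0425), and was -0.49 with the neighbour-corrected values (adjusted p = 0.361).

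HSP42, the small heat shock protein that also works without stress, varied least, from -0.90 to 1.22 with an SD of 0.49 over 22 arrays. Its highest value was at 353 hours in no3AT and its lowest at 937 hours in 3AT40mM, the array where HSP82 and HSP104 were highest in that culture. In 3AT40mM it stood at 0.34 and 0.16 in galactose, 0.23 and 0.76 in early glucose, 0.17, 0.63 and 0.09 later and -0.90 at steady state, with the 574 and 850 hour arrays above both galactose arrays and the 878 and 937 hour arrays below both. The change at steady state was -0.30, -1.15 and 0.20 in no3AT, 3AT40mM and no3AT2, a mean of -0.42 (SE 0.32, adjusted p = 0.366). Against early glucose it was -0.75 (SE 0.32, adjusted p = 0.675), the lowest of the 10 genes in that comparison.

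The next question was what each culture did on its own. In the fit of the 17 single arrays no member was called in any chemostat. The share of all genes called in no3AT was 0% in early glucose against galactose, 0.0836% in steady glucose against galactose and 1.02% in steady against early glucose. In 3AT40mM it was 0% in each, and in no3AT2 0.523%, 1.38% and 0.648%. Members with an unadjusted p under 0.05 numbered 3, 1 and 2 in no3AT, 0, 4 and 2 in 3AT40mM and 3, 0 and 4 in no3AT2. Of all 4783 genes tested, those under 0.05 numbered 541, 716 and 690 in no3AT. They numbered 469, 767 and 329 in 3AT40mM and 1152, 756 and 597 in no3AT2. Here the error is the spread among arrays of a single culture, which may be technical. The 4 in steady glucose of 3AT40mM were HSP82 at 2.52 (SE 0.78), HSP104 at 2.35 (SE 0.51), CPR6 at 1.86 (SE 0.67) and HSP42 at -1.15 (SE 0.53), with adjusted p-values of 0.18 to 0.297. The steady state of that culture is 1 array, assumed to vary like the others.

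**Figure D3:**
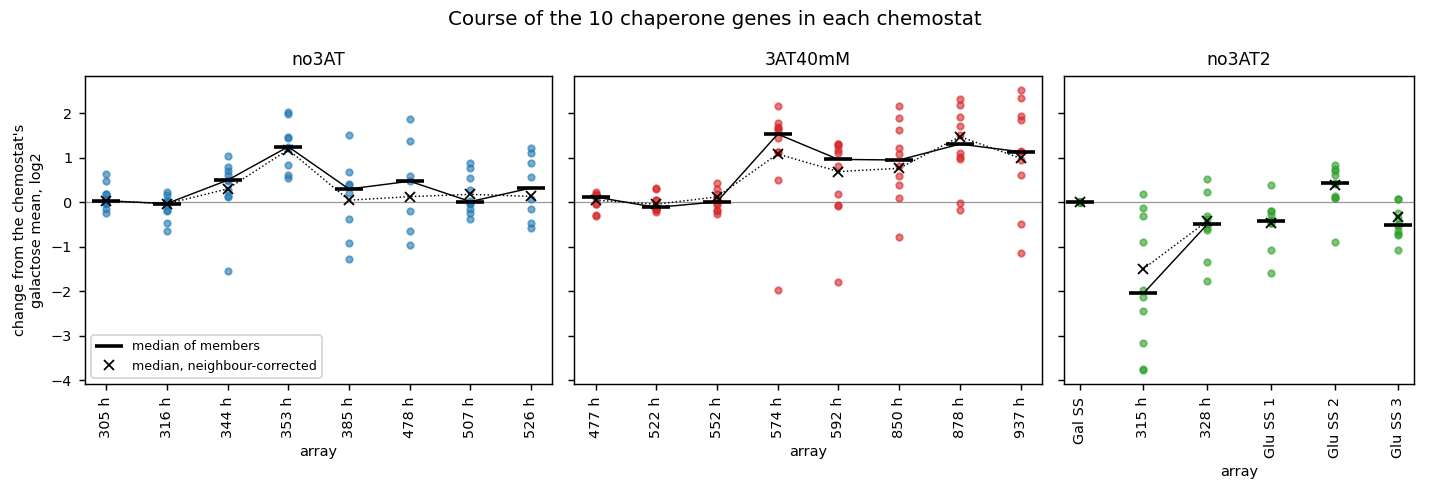
Change of the chaperone genes from the mean of their chemostat's own galactose arrays on the log2 scale (y axis) for each array (x axis), with circles for genes, bars for their median and crosses for the median of neighbour-corrected values. The median was 1.25 at 353 hours in no3AT, 1.53 at 574 hours and 1.13 at 937 hours in 3AT40mM, and -2.04 at 315 hours in no3AT2.

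Array by array, the course in no3AT was a peak. The median of the genes with a value was 0.49 above galactose at 344 hours and 1.25 at 353 hours, where 6 of 9 genes were up at least 2-fold beside 18.4% of all genes. It was 0.30, 0.47, 0.01 and 0.32 on the 4 arrays that followed. SSA1, SSA2, SSA3, HSC82, HSP104 and CPR6 had both early arrays above both galactose arrays, 6 of 9 genes with all values against 22.6% of all genes. At steady state HSP82, HSP104 and CPR6 did, 3 of 8 against 24.1%.

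In 3AT40mM the course was a step that was still there at the last array. The median was 0.01 at 552 hours, when 0 of 10 genes were up at least 2-fold beside 0.0501% of all genes. It was 1.53 at 574 hours, when 8 of 10 were up beside 16.4% of all genes and HSP26 stood at -1.96 from galactose. On the later arrays, at 592, 850 and 878 hours, the median was 0.96, 0.95 and 1.30, with 5, 5 and 7 genes up at least 2-fold beside 10.5%, 6.18% and 5.48% of all genes. SSA2, SSA4, HSP82, HSC82, HSP104 and CPR6 had all 3 of these arrays above both galactose arrays, 6 of 10 genes against 30.2% of all genes. At 937 hours 6 were up beside 16.2% of all genes and HSP42 was down, and the median of 1.13 was 0.99 with the neighbour-corrected values. Transcripts of GAL1 stood at -4.26 at 574 hours and at -1.68, -1.30 and -0.94 from 850 hours on, near their galactose level of -1.23 and -1.06. The median of the chaperone genes stayed above galactose on these arrays, but not each gene. HSP26 stood at -0.785, -0.019 and -0.5 from galactose at 850, 878 and 937 hours, and HSP42 at 0.38, -0.16 and -1.15. SSA3 lay close to galactose at 850 hours, at 0.10.

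In no3AT2 the course was a dip. At 315 hours the median change from the 1 galactose array was -2.04, and 6 of 10 genes were down at least 2-fold beside 24.1% of all genes. The lowest were HSC82 at -3.77, SSA2 at -3.75 and SSA1 at -3.17, and SSA3 stood at 0.19. At 328 hours the median was -0.50, with SSA2 at -1.77 and SSA1 at -1.35. SSA1, SSA2, HSP82, HSC82, HSP104, HSP26 and CPR6 had both early arrays below galactose, 7 of 9 genes against 42.6% of all genes. At steady state the 3 arrays had medians of -0.42, 0.42 and -0.52, on both sides of galactose. The dip was -1.50 with the neighbour-corrected values. SSA2 passed the test with those values in early glucose against galactose (-2.99, adjusted p = 0.0466, against 4.08% of all genes called), and had -2.76 (SE 0.74, adjusted p = 0.077) without the correction.

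Whether the cultures differed was tested directly. The return from early glucose to steady state differed between no3AT2 and no3AT for SSA1 and SSA2, the only 2 members called in any comparison, while 4.35% of all genes were called. At steady state against early glucose SSA2 stood at -1.44 in no3AT (SE 0.61) and at 2.28 in no3AT2 (SE 0.55). The difference was 3.72 (SE 0.82, 13.2-fold, adjusted p = 0.0134). SSA1 stood at -1.48 in no3AT (SE 0.72) and at 1.95 in no3AT2 (SE 0.54), a difference of 3.44 (SE 0.90, 10.8-fold, adjusted p = 0.0364). HSC82 differed by 3.25 (SE 1.03, adjusted p = 0.0909) without passing. The calls rest on single arrays: without the 353 hour array of no3AT they were 3.04 for SSA2 (adjusted p = 0.142) and 3.22 for SSA1 (adjusted p = 0.196), and without the 315 hour array of no3AT2 they were 2.73 (adjusted p = 0.153) and 2.52 (adjusted p = 0.256). Without the 507 hour array of no3AT SSA2 stood at 3.50 (adjusted p = 0.0514) and SSA1 could not be tested. RNA type and culture cannot be told apart in this comparison.

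The difference between no3AT2 and no3AT in early glucose against galactose was below 0 for all 10 members (median -1.69, beside -0.04 for all genes), with SSA2 at -4.06 (SE 0.96, adjusted p = 0.0775) and SSA1 at -3.50 (SE 0.93, adjusted p = 0.135). No member was called there, against 0.105% of all genes. An unadjusted p under 0.05 was seen for 5 of the 10 members, beside 621 of all 4783 genes. In steady glucose against galactose the same cultures differed by a median of -0.31 over the members, with 0 of 10 called against 0% of all genes.

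Between 3AT40mM and no3AT no member was called in any comparison, of changes or of levels, and 0% of all genes were called in each. In steady glucose against galactose HSC82 was 2.03 higher in 3AT40mM (SE 1.20), HSP82 1.96 higher (SE 1.00) and HSP104 1.40 higher (SE 0.66), each with an adjusted p of 1.00 from limma across all genes. In steady against early glucose the differences were 1.99 for HSP82 (SE 1.00), 1.87 for HSC82 (SE 1.20), 1.81 for SSA1 (SE 1.02) and 1.67 for HSP104 (SE 0.66), each with an adjusted p of 0.989. The median over members was 1.15 and 1.21 in these comparisons, which share arrays, beside 0.09 and 0.21 for all genes. The cultures also started from different levels: in galactose 7 of 10 members were lower in 3AT40mM (median -0.53), with HSC82 at -1.47 (SE 0.76), HSP82 at -1.01 (SE 0.63) and SSA1 at -0.96 (SE 0.59), while HSP26 was at 1.51 (SE 0.76). In steady glucose 9 of 10 were higher in 3AT40mM (median 0.58), from 0.40 for SSA1 to 0.95 for HSP82, and HSP42 was at -0.60. None of these passed, each with an adjusted p of 0.996.

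Most of the members varied together over the arrays, the small heat shock protein genes less closely. Over 17 to 22 arrays, 43 of the 45 pairs had a Pearson correlation above 0 (median 0.49, 0.58 with the neighbour-corrected values). These correlations describe arrays that share chemostats and the reference pool, and carry no test. SSA1 and SSA2 correlated at 0.88, SSA1 and HSC82 at 0.89, SSA2 and HSC82 at 0.89, and HSP82 and HSC82 at 0.79. Without the arrays at 353 hours in no3AT and 315 hours in no3AT2, where the members' mean lay farthest out, these were 0.71, 0.77, 0.73 and 0.63. HSP82 went with HSP104 at 0.84, and at 0.90 without those arrays. Within no3AT and 3AT40mM that pair was at 0.80 and 0.97, and HSP82 and HSC82 were at 0.31 and 0.92. SSA3 and SSA4, the stress Hsp70 genes, correlated with each other at 0.72 and with SSA1 at 0.26 and 0.46. HSP26 correlated with the mean of the other members at 0.27 and HSP42 at 0.23, against 0.90 for HSP82. With the neighbour-corrected values these were 0.33, 0.49 and 0.94. HSP42 and HSP104 were at -0.16, which turned to 0.068 with those values. The correlations of HSP26 above 0 rested on no3AT2. Without that culture HSP26 lay below 0 with each other member, from -0.46 with HSC82 to -0.06 with HSP82. Within 3AT40mM it did so too, from -0.66 with SSA2 to -0.31 with HSP104. Within no3AT its correlations lay on both sides of 0, at -0.46 with HSC82 and 0.41 with HSP82.

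**Figure D4:**
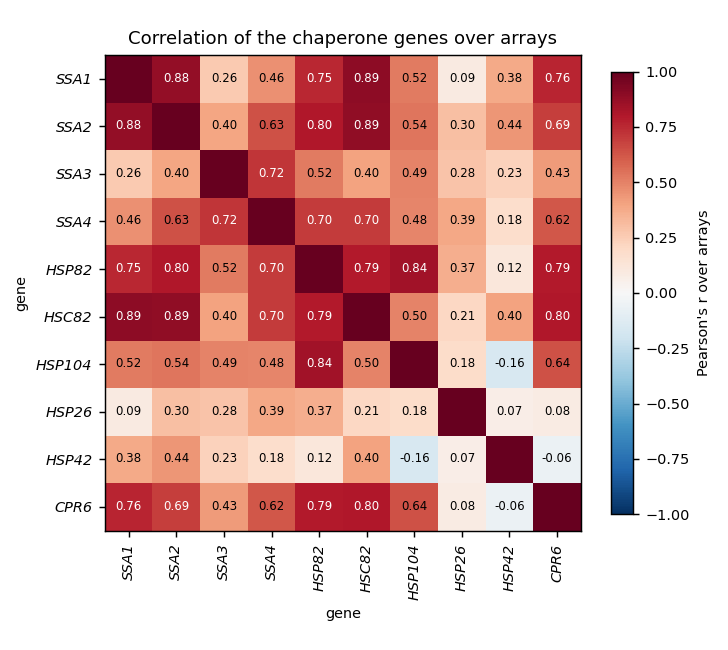
Pearson correlation over arrays (colour and number in each cell) for each pair of the 10 chaperone genes (both axes). SSA1, SSA2, HSP82, HSC82 and CPR6 form a block of correlations of 0.69 to 0.89, while HSP26 and HSP42 reach at most 0.39 and 0.44.

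Of 4562 other genes with enough values, those whose course was most like the mean of the members over the arrays were DDR48, a gene of the DNA damage and heat response, at 0.89, YLR217W at 0.88 and SSE1, the nucleotide exchange factor of Hsp70, at 0.88. UTH1, SSC1 (the main mitochondrial Hsp70), HXT4 (a glucose transporter), STM1, STI1 (which links Hsp70 and Hsp90), YLR257W and YMR173W-A followed at 0.87 to 0.84. By its systematic name YMR173W-A lies beside DDR48 (YMR173W), so this pair may not be separate observations. The median over all these genes was -0.02, and without the arrays at 353 and 315 hours the 10 named genes were at 0.59 to 0.84. YLR217W is an open reading frame that overlaps CPR6 on the other strand, and a double-stranded probe would not tell these RNAs apart. It correlated with CPR6 at 0.83 over 20 arrays. YAL004W, which overlaps SSA1, correlated with it at -0.36 over 11 arrays. With the neighbour-corrected values STI1 led at 0.90. SSA4 on its own was most like YOL036W (0.78), PCL5 (0.77) and UBI4, the polyubiquitin gene (0.76), and HSP104 most like PRP19 (0.87), VHS3 (0.85) and RGT1 (0.84).

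In 8 lists of other chaperone and stress genes, the share called over the 3 chemostats was close to that of all genes. Of 66 list genes tested, 4 were called in early glucose against galactose (6.06%, beside 7.11% of all genes) and 11 in steady glucose against galactose (16.7%, beside 17.6%), so the counts given for single lists below are no result about the lists. The lists were chosen by function, with earlier results of these data known. The median change at steady state against galactose was 0.14 for the Hsp90 co-chaperones, 0.45 for the cytosolic Hsp70 partners, -0.52 for the ribosome-bound chaperones, -0.27 for the chaperonin CCT, 0.36 for mitochondrial and 0.17 for endoplasmic reticulum chaperones, 0.57 for other heat shock genes and 0.31 for genes of the Msn2 and Msn4 stress response, beside 0.02 for all genes. In early glucose these medians were 0.05, -0.10, -0.49, -0.15, -0.06, -0.21, 0.02 and 0.21 in the same order, beside 0.02. Of 9 tested Hsp90 co-chaperones, 1 fell in early glucose, TAH1 at -1.11 (SE 0.28, adjusted p = 0.0288), and 2 fell at steady state against galactose, TAH1 at -1.21 and CNS1 at -1.17 (SE 0.32, adjusted p = 0.0232). STI1, which correlated with the members, stood at 0.58 at steady state without passing. None of 8 tested cytosolic Hsp70 partners was called in any of the 3 comparisons, with CAJ1, a J-protein, at 0.78 in early glucose and SNL1 at -0.87 and FES1 at 0.59 at steady state.

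Of 7 tested mitochondrial chaperones HSP78, the mitochondrial disaggregase related to Hsp104, fell in early glucose by 1.03 (SE 0.29, adjusted p = 0.0445) and was at -1.23 (SE 0.29, adjusted p = 0.0112) at steady state, where HSP10, the co-chaperonin, rose by 0.96 (SE 0.29, adjusted p = 0.0371). Of 10 tested endoplasmic reticulum chaperones CNE1, a calnexin homologue, and JEM1, a J-protein, fell in early glucose, at -1.75 (SE 0.30, adjusted p = 0.0093) and -1.88 (SE 0.36, adjusted p = 0.0095), and at steady state, at -1.84 and -1.59. ERO1, the thiol oxidase, rose by 0.99 at steady state (SE 0.33, adjusted p = 0.0497).

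Of 8 tested subunits of the cytosolic chaperonin CCT, CCT2 fell by 1.23 at steady state (SE 0.36, adjusted p = 0.0318). Of 8 other heat shock genes tested, SNO4 and CUR1 rose at steady state, by 0.98 (SE 0.32, adjusted p = 0.0478) and 1.05 (SE 0.33, adjusted p = 0.0427). Of 14 genes of the Msn2 and Msn4 stress response, TSL1, a subunit of trehalose synthase, rose at steady state by 0.87 (SE 0.28, adjusted p = 0.0427). The ribosome-bound Hsp70 genes SSB1 and SSB2 stood at -0.83 and -0.15 in early glucose without passing. None of these calls of other genes remained with the neighbour-corrected values, where 0% of all genes were called in early glucose and 0.418% at steady state. The sizes moved unequally: HSP78 was then at -1.27 in early glucose and -1.17 at steady state and CNE1 at -1.19 and -0.90, while TAH1 was at -0.23 and -0.17 and CCT2 at 0.16 at steady state. HSF1, the gene of the heat shock factor, stood at 0.02 in early glucose and -0.33 at steady state. It ran between -0.70 and 1.53 over the arrays, highest at 353 hours in no3AT and lowest at 315 hours in no3AT2. The members' mean was highest and lowest on the same arrays. Within 3AT40mM, however, HSF1 was highest at 477 hours in galactose (0.58), where the member median was -0.65. It was lowest in that culture at 937 hours (-0.17), where the member median was 0.68. MSN2 and MSN4 were not tested, since MSN2 had no value in early glucose of no3AT2 and MSN4 none in galactose of no3AT.

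In the difference between no3AT2 and no3AT in the return to steady state, SSE1 (3.16, SE 0.81, adjusted p = 0.0314), SSB2 (3.49, SE 0.64, adjusted p = 0.0047), SSC1 (2.62, SE 0.68, adjusted p = 0.0318) and TPS1, the trehalose synthase (2.49, SE 0.57, adjusted p = 0.0155), were called beside SSA1 and SSA2. They are 4 of the 66 list genes tested (6.06%, beside 4.35% of all genes) and were named after their values were seen. With the neighbour-corrected values SSE1 was at 2.66 and no longer passed (adjusted p = 0.0995), as SSA1 did not (3.11, adjusted p = 0.133).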

How the data were processed

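RNA of 3 yeast chemostats was hybridised on 22 two-colour arrays, Cy5 for the sample and Cy3 for the reference pool, per the labels. The deposited values were taken as log2 ratios: they are signed and lie around 0, but the labels used here state neither the base nor the scanning, normalization and spot filters. With another base the log2 values would scale and the 2-fold counts would change. Of 6281 row IDs, 5763 matched an R64 gene, and rows of one gene were averaged. Arrays were centred on their medians (-0.15 to 0.07 as deposited). Tests took in the 4783 genes measured on 80% or more of the arrays and in all 9 combinations of chemostat and phase. Limma 3.58.1 in R 4.3.3 was fitted to the 9 means with the chemostat as a block (4 residual and 10.4 prior degrees of freedom), and for single cultures and their differences to 17 arrays (8 and 11.4). P-values are two-sided, Benjamini-Hochberg adjusted over 4783 genes, with a threshold of 0.05. The fits were run on simulated data with independent noise for each gene and array, which lacks the joint movement of neighbouring rows seen here. That run is no support for the results. Neighbour-corrected values are freed of the median of 10 rows before and 10 after in table order, taken at steps of 2. The number of arrays limits precision. Genes named are the 10 members, list genes past the threshold or the 2 with the largest change, and the 10 genes most like the members' mean over arrays (3 for SSA4 and HSP104). Members and lists were chosen with earlier results of these data known. No gene sequences were used here.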

Additional observations from a re-analysis of the deposited data

Results flagged for a closer look

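SSA1 and SSA2 had opposite changes between early and steady glucose in the cultures without inhibitor, and the test of the difference between no3AT2 and no3AT passed for both, at 3.44 (adjusted p = 0.0364) and 3.72 (adjusted p = 0.0134) on the log2 scale in limma's fit of 17 arrays. Their sequences are nearly the same, so the pair counts as little more than 1 observation. SSA2 remained past the threshold with the neighbour-corrected values (3.68, adjusted p = 0.0272) and SSA1 did not (3.11, adjusted p = 0.133). Neither passed without the 353 hour array of no3AT or without the 315 hour array of no3AT2. The labelled RNA type differs between these cultures and cannot be told apart from them. The error in this fit is the spread among arrays within cultures and does not measure the spread between cultures.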

How the results depend on the processing

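The 14 alternative settings and the leaving out of each of 3 chemostats and 17 arrays moved several counts. The counts of called members in this section stand without the share of all genes called under the same setting. They show how the calls depend on the setting and are no result about the members. Over 3 chemostats, members called in early glucose against galactose ranged from 0 to 1 over left-out arrays and chemostats, and were 1 (HSP26) without the 552 hour array. In steady glucose against galactose they ranged from 0 to 3, and were 2 with quantile normalization and 1 with the values as deposited, with values on all 17 arrays, with trended and robust moderation, with arrays as units and with all glucose arrays before steady state as early, each 1 being HSP104. Steady against early glucose gave 0 throughout. The medians of the members ranged from -0.33 to 0.79, -0.03 to 0.88 and -0.02 to 1.10 over left-out arrays and chemostats.

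Within cultures, and in the difference between no3AT2 and no3AT in early glucose against galactose, the main counts were all 0. With the lowest labelled hour as early they were 4 in steady glucose against galactose and 1 in steady against early glucose in 3AT40mM, 6 in early glucose against galactose and 5 in steady against early glucose in no3AT2, and 4 in that difference. Without the 552 hour array they were 3 and 1 in early and steady glucose against galactose in 3AT40mM, 2 and 2 in early glucose against galactose and steady against early glucose in no3AT2, and 2 in the difference. With neighbour-corrected values and without that array, a combination chosen after seeing the data, they were 1, 2, 1, 2 and 2 in the same order. Quantile normalization gave 2 in steady glucose of 3AT40mM and 1 in steady against early glucose of no3AT2, values on all 17 arrays 1 in the latter, and the neighbour-corrected values 1 in early glucose of no3AT2. Over left-out arrays these counts ranged from 0 to 3 in early glucose of 3AT40mM, in both comparisons of no3AT2 and in the difference, and from 0 to 1 in steady glucose of 3AT40mM and in steady against early glucose of no3AT. The 2 calls in the difference in steady against early glucose ranged from 0 to 3 over left-out arrays and chemostats. They were 3, HSC82 being the third, with the lowest labelled hour as early and without the 552 hour array, 1 with the values as deposited, quantile normalization, neighbour-corrected values, the chromosome arm median removed and values on all 17 arrays, and 0 with all glucose arrays before steady state as early.

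Signs of genes that missed the threshold turned as follows. In early glucose against galactose the neighbour-corrected values gave 0.55 for SSA1, -0.19 for SSA4 and -0.06 for CPR6, and 1.07 for SSA1, -0.05 for SSA4 and 0.061 for HSC82 without the 552 hour array as well. The chromosome arm median removed gave 0.52, -0.23 and -0.071 for SSA1, SSA4 and CPR6. Arrays as units gave 0.14, 0.013 and 0.18 for SSA1, SSA2 and HSC82, and leaving out the 552 hour array alone 0.26, 0.047 and 0.33. The lowest labelled hour as early gave -0.15, -0.47, -0.072 and -0.46 for SSA4, HSP82, HSP42 and CPR6. In steady glucose against galactose SSA2 was at -0.30 with the neighbour-corrected values, with and without the 552 hour array, and at -0.49 with the arm median removed. HSP26 was there at 0.34 in both neighbour-corrected fits, 0.29 with the arm median removed and 0.017 with quantile normalization. In steady against early glucose SSA1 was at -0.065 without the 552 hour array and -0.21 with both, and SSA2 at -0.051 with the arm median removed and -0.010 with both. Over left-out arrays and chemostats the early values ranged from -0.73 to 1.02 for SSA1, -0.97 to 1.06 for SSA2, -0.31 to 0.46 for SSA4, -0.037 to 1.08 for HSP82, -0.58 to 1.05 for HSC82 and -0.35 to 0.74 for CPR6. The steady values against galactose ranged from -0.056 to 0.86 for SSA1, -0.31 to 0.89 for SSA2, -0.12 to 0.30 for SSA3, -0.038 to 0.68 for SSA4, -0.021 to 1.31 for HSC82 and -0.75 to 0.021 for HSP26, and those against early glucose from -0.58 to 1.14 for SSA1, -0.66 to 1.21 for SSA2 and -0.12 to 1.50 for HSC82. The causes were not tested. No pairing of single arrays was possible because only 3 arrays, those of the glucose steady state in no3AT2, carry replicate numbers in the labels. The pairing by culture is part of the fit over 3 chemostats, which has the chemostat as a block. Depth and signal over background are unknown, as no intensities were used here.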
